A study of Mus musculus with 24 samples.

Results

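The respiratory chain complexes III and IV and the ATP synthase, complex V, are built in the mitochondrial inner membrane from subunits of separate genomes, and most of their subunits are encoded in the nucleus. The genes described here were selected by a rule on their names. Every gene symbol of the deposited count tables that starts with Uqcr, with Cox4 to Cox8 or with Atp5 was taken, which gave 51 symbols, and 7 of them were left out because their names mark pseudogenes (Atp5c1-ps, Atp5k-ps2, Atp5l-ps1, Atp5l-ps2, Atp5l2-ps, Uqcrh-ps1 and Uqcrh-ps2). The remaining 44 of 54658 symbols comprised 8 genes of complex III, 19 of complex IV and 17 of complex V. The annotation lists 43 of them as protein coding and Cox6c2 as a processed pseudogene of Cox6c.

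RNA-seq read counts were compared between mice given β-nicotinamide mononucleotide (β-NMN, a precursor of NAD+) and mice given saline vehicle, in peritoneal cells (6 mice per treatment) and in heart and lung (3 mice per treatment, both organs from the same animals). All mice were C57BL/6 males aged 7 to 12 weeks. β-NMN was injected intraperitoneally at 185 mg/kg per day. By the study's methods the mice of the peritoneal cells got it daily for 3 days, first together with the thioglycollate and last 24 h before they were killed. The mice of the hearts and lungs got it right after surgery, and since their organs were taken 24 h after surgery and the last dose was 24 h earlier, they had 1 dose. Tissues thus differ in model and in dosing. The peritoneal cells were exudate cells drawn by thioglycollate, plated and exposed for 6 h to Escherichia coli, in both treatments. They were not a purified cell type. The hearts and lungs came from mice with cecal ligation and puncture (CLP), a model of polymicrobial sepsis, although their source labels name thioglycollate. No uninfected or unstimulated samples were used, so each comparison is between treatments within the inflamed state.

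Complex III passes electrons from ubiquinol to cytochrome c, complex IV passes them from cytochrome c to oxygen, and complex V uses the resulting proton gradient to make ATP. Heart muscle runs almost entirely on this pathway. It also uses its own versions of 3 complex IV subunits, Cox6a2, Cox7a1 and Cox8b, in place of the ubiquitous Cox6a1, Cox7a2 and Cox8a. Macrophages activated by bacteria are known for turning from this pathway toward glycolysis.

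The labelled tissues carried their defining markers. The summed level of 10 cardiomyocyte markers was 40241 to 62017 counts per 1000000 (CPM) in hearts, that of 8 lung epithelial markers was 56425 to 101299 CPM in lungs, and that of 8 macrophage markers was 7091 to 13439 CPM in peritoneal cells. Libraries held 31.1 to 112 M counts (M, 1000000) in peritoneal cells, 27.3 to 68.5 M in hearts and 8.92 to 28.4 M in lungs. Some of them stood apart. The heart of vehicle replicate 2 held 2111 CPM of Myl7 and 4009 CPM of Nppa, genes of atrial muscle, where the other 5 hearts held 0.14 to 192 and 16.3 to 619 CPM. Its mesothelial markers stood apart too, with 45.3 CPM of Msln and 28.1 CPM of Upk3b, against at most 2.59 and 2.36 CPM. It also held the least Myl2, a ventricular myosin chain, with 865 CPM against 3422 to 4543 CPM. The lung of the same mouse had the fewest counts, 8.92 M. In peritoneal cells the depth fell into separate classes: 3 vehicle and 2 β-NMN libraries held 90.6 to 112 M counts, and 3 vehicle and 4 β-NMN libraries held 31.1 to 53.3 M. Counts and medians of the members are given with and without these libraries.

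In peritoneal cells the genes of all 3 complexes were mostly higher after β-NMN. Of the 39 members that passed the low-count filter, 35 had a positive log2 fold change (β-NMN over vehicle throughout) and the median was 0.32, against −0.02 over all 14985 genes tested. edgeR's quasi-likelihood test with Benjamini-Hochberg adjustment over all genes called 21 members higher and 1 lower at an adjusted p below 0.05. That made 56.4% of the members tested called in either direction where 51.6% of all genes were, 53.8% called higher where 23.7% of all genes were, and 1 member called lower where 27.9% of all genes were. The share called at all was thus near the background, and the split between directions was not. The summed level of the members was 1715 to 2230 CPM in vehicle cells (median 1836) and 1997 to 2325 CPM in β-NMN cells (median 2124), and these ranges overlapped. In such bulk samples, fewer cells of a type and less RNA per cell cannot be told apart.

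**Figure D1:**
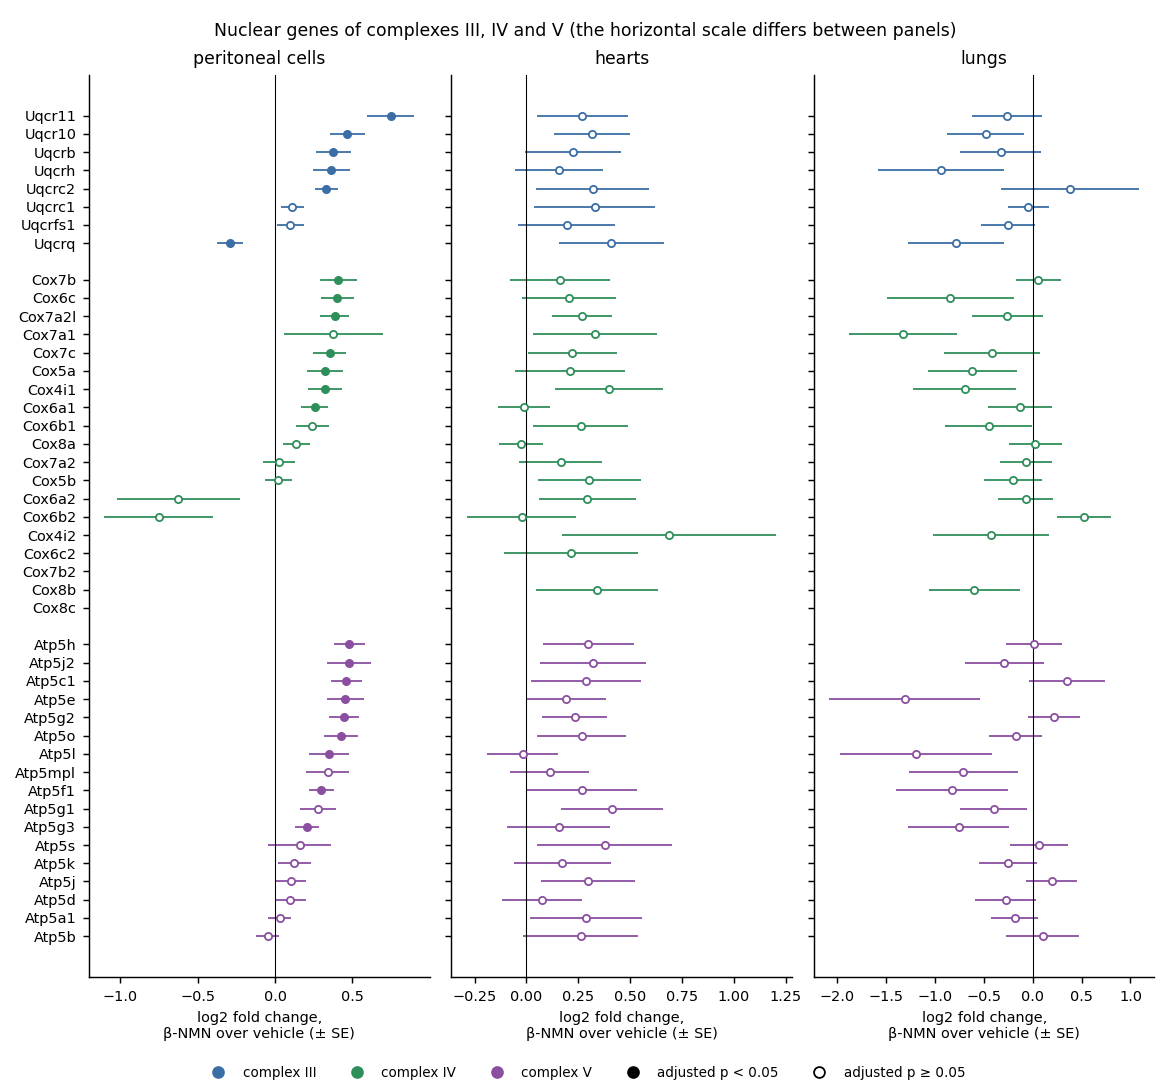
Log2 fold change (β-NMN over vehicle, horizontal axis, with standard error) of each member tested in peritoneal cells (n = 6 per group), hearts and lungs (n = 3 per group). Colours give the complex and filled points an adjusted p below 0.05. In peritoneal cells 35 of 39 points lie above 0 and 22 are filled, in hearts 38 of 42 lie above 0 and in lungs 10 of 41, with none filled in either organ.

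In complex III, 5 of 8 genes were called higher, where 23.7% of all genes were, and 1 lower, where 27.9% were. The median was 0.35. Uqcr11, the smallest subunit, had 3.94 to 7.49 CPM in vehicle cells (median 5.49) and 7.26 to 10.6 CPM in β-NMN cells (median 9.25). The lowest β-NMN library lay just under the highest vehicle library, and the other 5 were above all vehicle libraries. Uqcr11 rose by 0.75 ± 0.15 on the log2 scale (SE, adjusted p = 0.00080), the largest rise among the members. Uqcrc2, one of the core proteins that carry the complex on the matrix side, had 29.5 to 36.2 CPM in vehicle cells (median 31.9) and 37.2 to 43.0 CPM in β-NMN cells (median 41.3). Its groups did not overlap, and it rose by 0.33 ± 0.08 (adjusted p = 0.00192). Uqcr10, a small subunit beside the Rieske protein, had 9.45 to 14.0 CPM in vehicle cells and 12.3 to 16.98 CPM in β-NMN cells, and rose by 0.47 (adjusted p = 0.00326). Uqcrb, which contacts the quinone site, and Uqcrh, the hinge protein that binds cytochrome c1, rose by 0.38 and 0.36.

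Uqcrq was the exception. This small subunit sits next to the mitochondrially made cytochrome b. It had 39.6 to 52.4 CPM in vehicle cells (median 44.1) and 32.5 to 39.9 CPM in β-NMN cells (median 36.6), with 5 of 6 β-NMN libraries below all vehicle libraries. It fell by 0.29 on the log2 scale (SE 0.08, adjusted p = 0.00915), a call that was lost without β-NMN replicate 4 (adjusted p = 0.0528). Uqcrc1, the other core protein, and Uqcrfs1, the Rieske iron-sulfur protein, were not called, with log2 fold changes of 0.11 and 0.10.

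In complex IV, 7 of the 14 genes tested were called, all higher, with a median of 0.29. Cox7a2l, a relative of Cox7a2 that takes part in joining complexes III and IV into supercomplexes, had 79.1 to 116 CPM in vehicle cells (median 88.9) and 112 to 130 CPM in β-NMN cells (median 120). It rose by 0.39 ± 0.09 (adjusted p = 0.00353). Cox6c had 23.8 to 33.8 CPM in vehicle cells and 30.9 to 42.8 CPM in β-NMN cells, and rose by 0.40 (adjusted p = 0.00486). Cox7b rose by 0.41 (adjusted p = 0.0104), and Cox7c, Cox4i1, Cox5a and Cox6a1 rose by 0.35, 0.32, 0.32 and 0.26. The call of Cox4i1 was lost without vehicle replicate 2, 5 or 6 or β-NMN replicate 2 (adjusted p = 0.0513 to 0.0590), and that of Cox6a1 without vehicle replicate 2 or 6 or β-NMN replicate 2 (adjusted p = 0.0566 to 0.0600). In Cox7a2l and Cox6c the highest vehicle library was replicate 3, and in Cox6c and Cox7b the lowest β-NMN library was replicate 6.

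The other complex IV genes tested were not called. Cox6b1, on the side of cytochrome c, had a log2 fold change of 0.24 (adjusted p = 0.0699), Cox8a 0.14, Cox7a2 0.03 and Cox5b 0.02. Values below 0 were found for Cox6b2, the testis version of Cox6b1 (−0.75, adjusted p = 0.0875), and for Cox6a2 (−0.62, adjusted p = 0.204). Both were near the detection limit, with 233 and 240 counts in all 12 libraries together. The 5 members that did not pass the filter were also of complex IV: Cox4i2 had 139 counts in all, Cox6c2 had 16, Cox8c, a testis gene, had 9, Cox8b had 5 and Cox7b2, another testis gene, had 4.

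In complex V, 9 of 17 genes were called (52.9%, where 51.6% of all genes were), with a median of 0.30. All 9 were higher, where 23.7% of all genes were called higher. Atp5h, subunit d of the stalk that holds the catalytic head, had 28.3 to 43.0 CPM in vehicle cells (median 34.2) and 42.1 to 53.5 CPM in β-NMN cells (median 48.2). It rose by 0.48 ± 0.10 (adjusted p = 0.00108). Atp5g2, one of 3 genes for the same mature ring subunit c, had 33.8 to 45.1 CPM in vehicle cells and 46.4 to 63.1 CPM in β-NMN cells. Its groups did not overlap, and it rose by 0.45 (adjusted p = 0.00124). Atp5c1, the rotating γ subunit, rose by 0.46 (adjusted p = 0.00130), and Atp5f1, subunit b of the stalk, rose by 0.30 with no overlap between groups (adjusted p = 0.00735). Atp5e, Atp5j2, Atp5o, Atp5g3 and Atp5l rose as well, by 0.45, 0.48, 0.43, 0.21 and 0.35. Atp5l shares its coding sequence with 14 near-identical copies elsewhere in the genome, whose rows held 7.23% of the joint peritoneal reads, so its value is uncertain.

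The catalytic α and β subunits were not called. Atp5b had 395 to 488 CPM in vehicle cells (median 404) and 391 to 439 CPM in β-NMN cells (median 401), a log2 fold change of −0.05 ± 0.08 (adjusted p = 0.632). Atp5a1 had 240 to 281 CPM and 246 to 281 CPM, a log2 fold change of 0.03 ± 0.07 (adjusted p = 0.758). They were the most abundant members by CPM in these cells. The other members not called were Atp5mpl (0.34, adjusted p = 0.0506), Atp5g1, which makes the same ring subunit as Atp5g2 (0.28, adjusted p = 0.0574), and Atp5s, Atp5k, Atp5j and Atp5d at 0.10 to 0.16.

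Counting only the members whose groups did not overlap, 3 of 39 (Atp5f1, Atp5g2 and Uqcrc2) were higher in every β-NMN library, where 12.6% of all genes tested were, and 0 were lower in every β-NMN library, where 14% of all genes were.

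**Figure D2:**
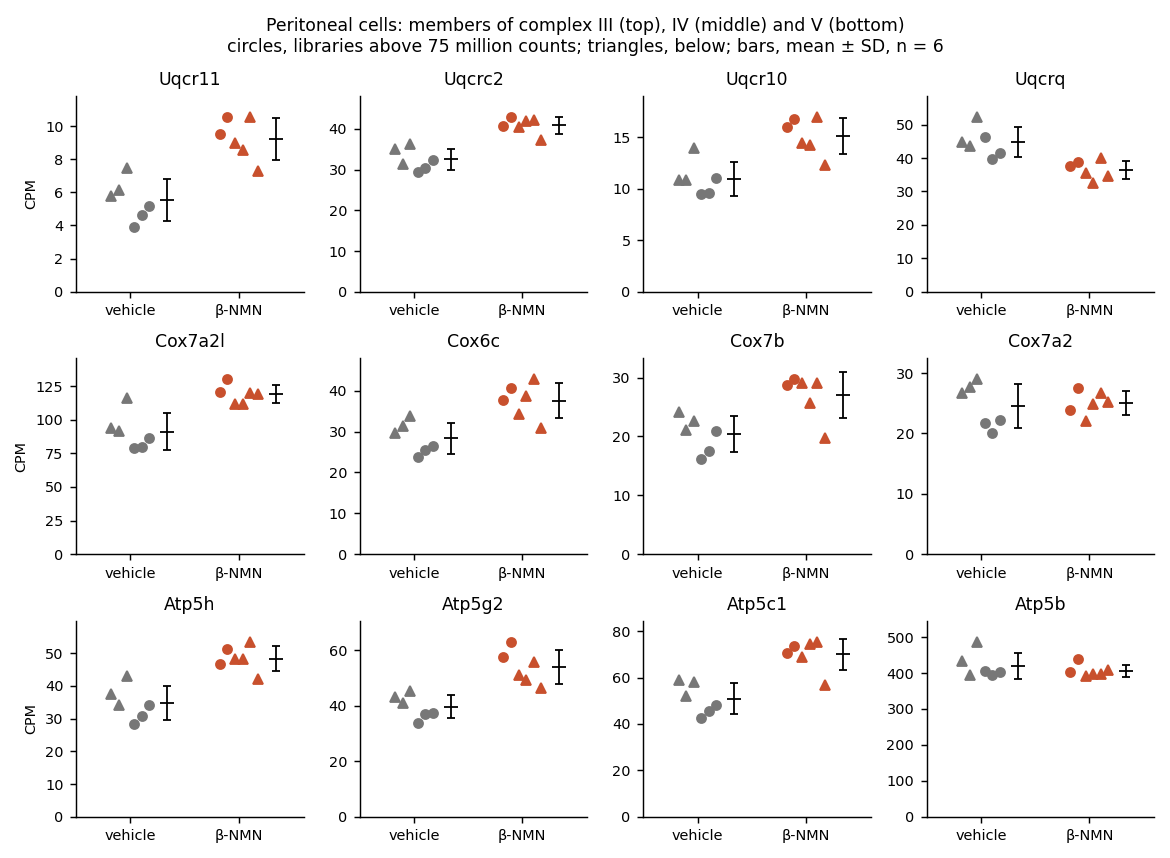
CPM (vertical axis, starting at 0) of 12 members in each peritoneal library, grey for vehicle and orange for β-NMN, with mean ± SD at the side of each group (n = 6). Circles are libraries above 75 M counts and triangles those below. In Uqcr11, Uqcr10, Cox6c and Atp5h the vehicle circles lie below the vehicle triangles on average, and the vehicle triangles lie nearer to β-NMN.

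The size of the difference depended on which libraries were compared, as the plot of single libraries by depth shows. This split was made after the data were seen. Among the deeper libraries alone (3 vehicle, 2 β-NMN), 26 of 40 members were called higher, where 13.9% of all genes were, and 0 were called lower, where 16.6% were, with a median of 0.55. Among the shallower libraries alone (3 vehicle, 4 β-NMN), 0 of 38 members were called higher, where 13.2% of all genes were, 6 members had an unadjusted p below 0.05 and the median was 0.16. In that class only Uqcrq was called, at −0.37 (adjusted p = 0.0482), where 14.7% of all genes were called lower. Uqcr11 gave 1.20 in the deeper class (adjusted p = 0.00367) and 0.47 in the shallower class (adjusted p = 0.0687). Atp5h gave 0.73 and 0.36 (adjusted p = 0.00799 and 0.0656), and Uqcrq gave −0.09 and −0.37. The difference between the classes was not itself tested. With the depth class as a term in the fit to all 12 libraries, 22 members were called higher, where 23.2% of all genes were, and 1 lower, where 27.3% were.

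Vehicle replicates 4, 5 and 6, the deeper ones, had 35, 37 and 37 of 39 members below the median of their gene over all libraries. Of the shallower vehicle libraries, replicates 1 and 2 had 27 and 32 of 39 below it, and replicate 3 had 33 of 39 above it. Among the β-NMN libraries, replicate 6 had 24 of 39 below it, whereas replicates 1 to 5 had 26 to 36 above it. Without vehicle replicate 3 and β-NMN replicate 6 together, 28 of 40 members were called higher, where 24.8% of all genes were, 0 were called lower, where 26.4% were, and the median was 0.44. These libraries were picked after seeing that the members ran against their group in them, so the larger count follows in part from the choice.

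**Figure D3:**
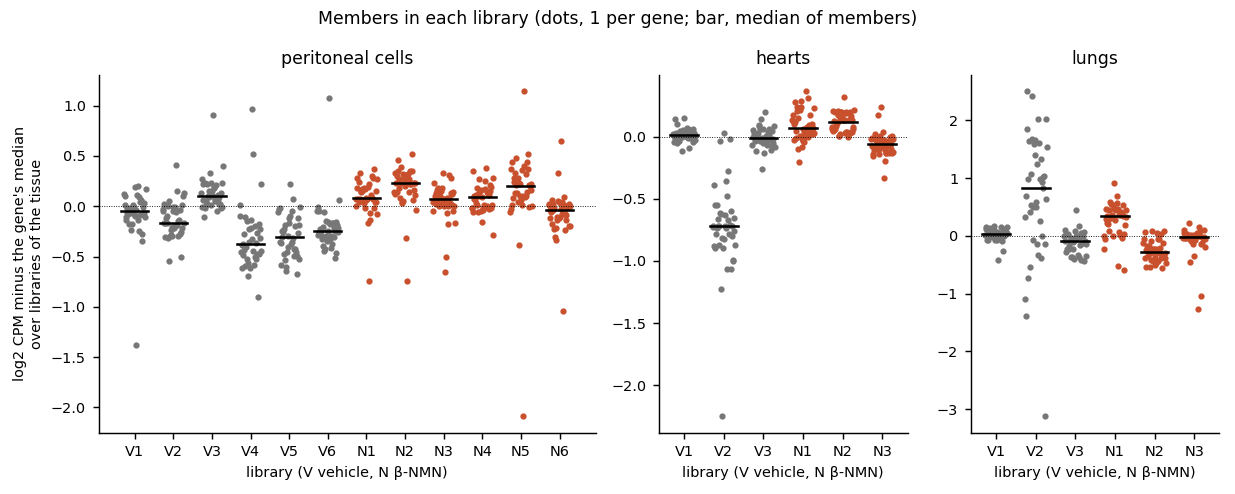
Log2 CPM of each member minus the median of that gene over the libraries of its tissue (vertical axis), for each library (V vehicle, N β-NMN, with replicate number). Each dot is 1 gene and the bar is the median of the members. The heart of vehicle replicate 2 has 41 of 42 members below 0, and the lung of the same mouse spreads from −3.12 to 2.51.

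The log2 fold change fell with annotated transcript length in these cells. The members are short, with a median mRNA length of 643.5 nucleotides, and 33 of the 39 tested lie among the shortest 2572 genes, 1 of 5 groups of nearly equal size by length. The median log2 fold change was 0.10 over that group and −0.15 over the longest. With the trend of counts with length removed in each library, which was added after seeing the data, 23 members were called higher, where 32.1% of all genes were, and 1 lower, where 21.6% were. The median of the members was then 0.31, and that of all genes was 0.12.

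Markers of other cells moved too. The summed level of 8 neutrophil markers was 111 to 318 CPM in vehicle cells and 20.8 to 52.1 CPM in β-NMN cells, with 5 of 7 tested called lower and 1, Retnlg, called higher. The summed level of 5 erythroid markers was 2.91 to 38.8 CPM and 52.5 to 133 CPM, all 5 called higher. The 8 macrophage markers summed to 7091 to 13439 CPM in vehicle cells and 10834 to 12492 CPM in β-NMN cells, with 4 called higher and 1 lower. The 6 B and T cell markers summed to 28.5 to 137 CPM and 19.6 to 77.4 CPM, with 4 called lower, and among them Trbc2, of the T cell receptor, had 1.83 to 6.25 CPM and 0.40 to 1.15 CPM, without overlap. The 4 mesothelial markers summed to 2.32 to 14.5 CPM and 1.43 to 4.84 CPM, with 3 called lower, and the 4 eosinophil markers to 8.23 to 32.1 CPM and 15.2 to 60.7 CPM, with 1 of 2 tested called higher. The part of these cells, of length and of depth in the members' values was not tested.

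The promoters of the members were read for motifs of factors known to act on respiratory genes. Windows of 250 bases before the start of a gene were taken from RefSeq on GRCm38.p6, which had one for 32 of the 44 members, 17 of the 21 that rose and 15 others. Both strands were searched, and a gene with more than 1 window, as Atp5c1, Atp5d and Atp5j have, counts if any of them matches. The NRF1 letters GCGCANGCG were in 6 of 32 members (18.8%) and in 5.86% of all 27025 genes with a window, and the ETS letters CCGGAAG, bound by GABPA, in 8 (25.0%) and 7.83%. The CCAAT letters bound by NF-Y were in 17 (53.1%) and 37.5%. The ERR letters TNAAGGTCA were in 1 member, Atp5g3 (3.12%), and in 1.3% of all genes. Of the members that rose, 5 of 17 held the NRF1 letters, 6 the ETS letters and 10 the CCAAT letters. Of the others it was 1, 2 and 7 of 15. The windows shown are those of the genes with the smallest p in complexes III and V, Uqcr11 (chr10:80406822-80407071, minus strand) and Atp5h (chr11:115419920-115420169, minus strand), and of Atp5b (chr10:128083057-128083306, plus strand), which was not called. Each is written toward the gene, with motif letters in capitals.
Uqcr11: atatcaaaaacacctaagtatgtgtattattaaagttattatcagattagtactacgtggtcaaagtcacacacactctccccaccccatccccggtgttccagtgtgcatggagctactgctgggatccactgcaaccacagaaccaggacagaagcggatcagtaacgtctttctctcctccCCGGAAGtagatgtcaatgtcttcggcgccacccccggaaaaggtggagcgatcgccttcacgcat
Atp5h: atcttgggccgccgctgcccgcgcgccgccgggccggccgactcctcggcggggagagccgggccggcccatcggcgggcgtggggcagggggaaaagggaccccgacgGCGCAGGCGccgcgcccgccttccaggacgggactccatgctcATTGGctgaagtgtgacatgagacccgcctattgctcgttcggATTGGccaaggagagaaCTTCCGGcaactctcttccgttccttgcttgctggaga
Atp5b: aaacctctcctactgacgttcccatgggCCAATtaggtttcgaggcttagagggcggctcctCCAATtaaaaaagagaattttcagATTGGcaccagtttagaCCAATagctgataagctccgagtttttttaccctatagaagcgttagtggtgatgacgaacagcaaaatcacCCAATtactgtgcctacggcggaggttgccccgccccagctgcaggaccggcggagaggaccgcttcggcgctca
The capitals of Uqcr11 are the ETS letters. Those of Atp5h are, in order, the NRF1 letters, the CCAAT letters at 2 places and the ETS letters, and those of Atp5b are CCAAT letters only. CCAAT letters read as ATTGG on the other strand. A match of letters is a description of the sequence and not evidence of binding.

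Other genes of the same pathway were counted beside the members, from lists that hold no member. In peritoneal cells the 6 mitochondrially encoded subunits of these complexes all lay above 0 and 5 were called higher, where 23.7% of all genes were. mt-Cytb, cytochrome b of complex III, had 490 to 706 CPM in vehicle cells and 745 to 1025 CPM in β-NMN cells, and rose by 0.52 (adjusted p = 0.000679). mt-Co1, the catalytic subunit of complex IV, rose by 0.46 (adjusted p = 0.00201). Such transcripts carry short poly(A) tails, and their capture by poly(A) selection can vary between libraries.

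Of 21 complex IV assembly factors tested, 10 were called higher, where 23.7% of all genes were, and 2 lower, where 27.9% were. Cox15 and Cox10, which make the heme a of complex IV, had 22.6 to 34.9 and 3.73 to 5.15 CPM in vehicle cells, and 41.8 to 46.7 and 6.57 to 8.398 CPM in β-NMN cells. Neither pair of groups overlapped, and they rose by 0.62 (adjusted p = 8.59e-05) and 0.73 (adjusted p = 0.000103). Of 5 complex III assembly factors tested, Uqcc1 rose by 0.69 and Ttc19 fell by 0.31 on the log2 scale. Of 5 for complex V, 3 were called higher, among them Tmem70 (0.53) and Atpif1, the inhibitor of ATP hydrolysis (0.59).

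The naming rule missed 6 further nuclear genes tested, which make subunits of these complexes or proteins that work with them. Of these 2 were called higher, where 23.7% of all genes were. Cyc1, cytochrome c1 of complex III, was not called (−0.03, adjusted p = 0.754), and neither were Cycs, Higd1a and Higd2a. Ndufa4, first assigned to complex I and now known as part of complex IV, had 7.90 to 12.5 CPM in vehicle cells and 15.8 to 22.8 CPM in β-NMN cells. It rose by 1.05 ± 0.12 (adjusted p = 7.99e-06), more than any member. Usmg5, a small subunit of complex V, rose by 0.31 (adjusted p = 0.0273).

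Of 13 transcriptional regulators of the pathway tested, 3 were called higher and 7 lower. Esrra, the estrogen-related receptor α that activates many of these genes, had 65.3 to 88.4 CPM in vehicle cells and 34.3 to 53.2 CPM in β-NMN cells, and fell by 0.89 on the log2 scale (adjusted p = 9.88e-06). Mef2d fell by 0.79 (adjusted p = 0.000360). Of all genes tested in this tissue, 23.7% were called higher and 27.9% lower, which is the background for each count of these lists.

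In hearts 0 of 42 members tested were called by edgeR's quasi-likelihood test, where 0% of all 16245 genes were. At an unadjusted p below 0.05 the count was also 0. DESeq2 and limma-voom each called 0 members, where they called 262 and 3 of all genes. The values lay nonetheless on one side: 38 of 42 members had a positive log2 fold change, with medians of 0.29 in complex III, 0.22 in complex IV, 0.27 in complex V and 0.26 over all members, against −0.01 over all genes tested. Standard errors ran from 0.11 to 0.52, with a median of 0.23. Cox7b2 and Cox8c did not pass the filter, and Cox8c had no count in any heart.

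The pattern was that of 1 heart. The members summed to 28264, 16584 and 27471 CPM in the vehicle hearts, replicates 1 to 3, and to 30212, 30189 and 27118 CPM in the β-NMN hearts. Vehicle replicate 2 alone was low, and the other hearts differed little. It had 41 of 42 members below the median of their gene, by 0.72 on the log2 scale at the median. In it mitochondrially encoded transcripts summed to 57725 CPM, against 102408 to 137206 CPM in the other 5 hearts, and Myh6, the main myosin of mouse heart, had 17952 CPM against 29503 to 33821 CPM. Without this library, the median of the members was 0.05, 27 of 42 were above 0, the values ran from −0.17 to 0.25, and the median standard error was 0.10. The sign then changed in 11 members, of which Uqcrb lay farthest from 0 before (0.22, then −0.0059).

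The genes with the smallest p kept part of their difference without this library. Cox7a2l had 107, 93.6 and 117 CPM in vehicle hearts and 141, 130 and 110 CPM in β-NMN hearts, with a log2 fold change of 0.27 ± 0.14 (adjusted p = 0.459) and 0.18 without vehicle replicate 2. Uqcr10 had 225, 149 and 209 CPM against 254, 249 and 224 CPM (0.32, adjusted p = 0.470, and 0.15 without it). Atp5g1 had 1087, 625.4 and 990 CPM against 1304, 1230 and 1062 CPM (0.41, adjusted p = 0.481, and 0.20 without it). In each of them the lowest value was that of vehicle replicate 2. Cox4i1, the main form of subunit 4, had 1294, 739 and 1288 CPM against 1586, 1492 and 1305 CPM, with a log2 fold change of 0.40 (adjusted p = 0.504) and of 0.17 without that library. Cox4i2, its rarer hypoxia-linked form, had 6.87, 1.39 and 5.65 CPM against 6.67, 7.76 and 7.97 CPM (0.69, adjusted p = 0.543, and 0.25 without it). Uqcrq, the gene that fell in peritoneal cells, had 516, 278 and 481 CPM against 599, 592 and 504 CPM (0.41, adjusted p = 0.489, and 0.17 without it).

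Every β-NMN heart was above every vehicle heart in 3 of 42 members, Atp5g2, Cox4i1 and Uqcrc2, where 11.6% of all genes were, and 0 members were below it, where 11.5% of all genes were. The exact two-sided permutation p of each of the 3 was 0.1, the smallest that 3 against 3 can give. Uqcrc2 had 622, 314 and 601 CPM against 655, 639 and 624 CPM, and gave 0.06 without vehicle replicate 2. The 4 members below 0 were Cox8a, Cox6a1, Cox6b2 and Atp5l, at −0.02 to −0.01. In hearts the copies of Atp5l held 44.1% of the joint reads.

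In lungs 0 of 41 members were called, where 0% of all 17008 genes were. At an unadjusted p below 0.05 the count was 1, Cox7a1. DESeq2 and limma-voom each called 0 members, where they called 9 and 7 of all genes. Most values lay below 0: 10 of 41 members had a positive log2 fold change, with medians of −0.29 in complex III, −0.34 in complex IV, −0.25 in complex V and −0.26 over all members, against 0.00 over all genes. Standard errors ran from 0.21 to 0.77. Cox6c2, Cox7b2 and Cox8c did not pass the filter.

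Here too the library of vehicle replicate 2 stood out, in the other direction. Its 6 mitochondrially encoded transcripts summed to 556 CPM, against 2677 to 3658 CPM in the other 5 lungs, its 8 macrophage markers to 1379 CPM, against 4096 to 5535 CPM, and its 5 erythroid markers to 11867 CPM, against 1999 to 4088 CPM. The members summed to 5040, 9657 and 4633 CPM in vehicle lungs and to 5961, 4064 and 4831 CPM in β-NMN lungs. In vehicle replicate 2, single members lay from 3.12 below (Uqcrc2) to 2.51 above (Atp5e) the median of their gene on the log2 scale, with a median of 0.82. Atp5e, the ε subunit, had 207, 1165 and 169 CPM against 282, 140 and 201 CPM, and Uqcrc2 had 69.7, 7.37 and 61.3 CPM against 42.9, 68.8 and 69.5 CPM. Without that library the median of the members was 0.03, and 28 of 41 lay above 0, with a change of sign in 24 members. The values with the smallest p in complexes III and V were those of Uqcrq (−0.78, adjusted p = 0.969, and −0.081 without that library), which had 135, 355 and 111 CPM against 154, 88.1 and 107 CPM, and of Atp5e (−1.31, adjusted p = 0.969), which gave 0.14 without vehicle replicate 2. Atp5l, at −1.19, is uncertain, as its copies held 33.0% of the joint lung reads.

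Every β-NMN lung was above every vehicle lung in 1 of 41 members, where 4.47% of all genes were, and below in 2, where 3.75% were. Cox6b2 was above, with 14.3, 15.2 and 19.1 CPM in vehicle lungs and 30.9, 19.8 and 19.2 CPM in β-NMN lungs (0.53, adjusted p = 0.969). Atp5a1 and Cox7a1 were below, Atp5a1 with 475, 589 and 469 CPM against 465.6, 431 and 454 CPM (−0.18, adjusted p = 0.969, and −0.068 without vehicle replicate 2). In each the exact two-sided permutation p was 0.1, the smallest possible.

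The effect in heart was set against the effect in lung with an interaction term over the 12 libraries of both organs, without a term for the mouse, although both organs came from the same 6 mice. With the mouse as a block, 0 were called as well, 0 had an unadjusted p below 0.05, and the median difference was 0.47. Without the block, for 38 of 42 members the heart value was above the lung value, with a median difference of 0.50, but 0 were called by edgeR, where 0% of all 18318 genes were. At an unadjusted p below 0.05 the count was 1, Cox7a1 (1.59, adjusted p = 0.960). DESeq2 called 0 members, where it called 14 of all genes. Without the mouse of vehicle replicate 2, the median difference was 0.02 and 22 members were above 0. Of the 39 members tested in all 3 tissues, 32 had a positive log2 fold change in both peritoneal cells and hearts, and 25 of these a negative one in lungs. In all 3 tissues 7 were positive and 0 negative. These tallies rested on the mouse of vehicle replicate 2: without its heart and lung, 21 members were positive in both peritoneal cells and hearts, 6 of these were negative in lungs, and 15 were positive in all 3 tissues.

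The heart-type isoforms were high in hearts and low elsewhere, and none was called between treatments. Compared per kilobase of mRNA, Cox6a2 had 1516 ± 351 CPM per kb in vehicle hearts (SD, n = 3), Cox8b 1267 ± 463 and Cox7a1 1039 ± 384. Their ubiquitous partners Cox7a2, Cox8a and Cox6a1 had 267 ± 65.3, 187 ± 5.58 and 160 ± 15.8 CPM per kb. The spreads of the 3 heart-type genes overlapped each other. In vehicle lungs they had 34.99 ± 7.35 (Cox6a2), 21.8 ± 10.1 (Cox8b) and 22.3 ± 14.6 CPM per kb (Cox7a1), below all 3 partners, and in peritoneal cells Cox8b had 5 counts in all 12 libraries.

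**Figure D4:**
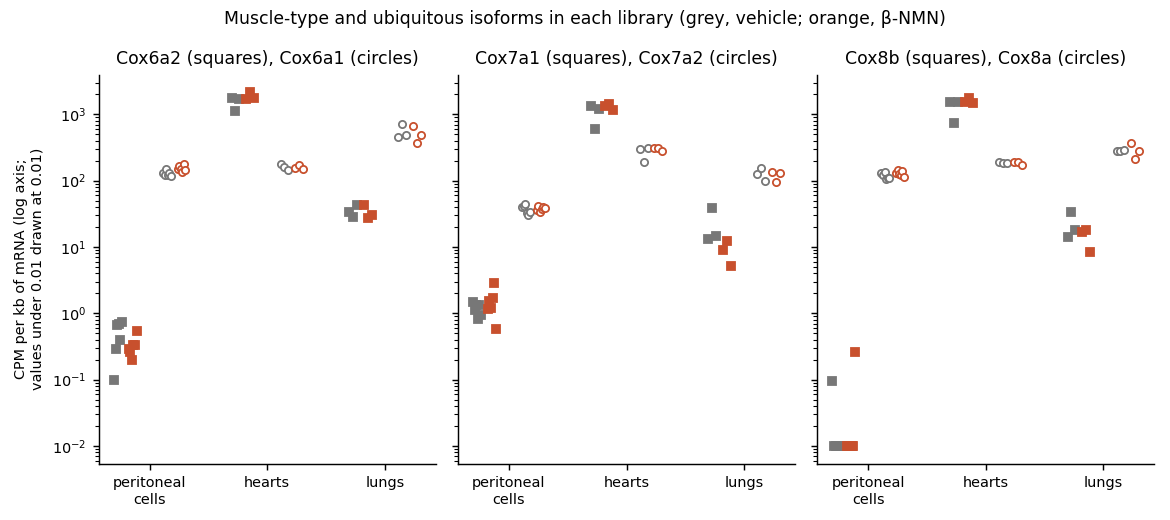
CPM per kb of mRNA (log axis, values under 0.01 drawn at 0.01) of the heart-type isoform (squares) and its ubiquitous partner (circles) in each library, grey for vehicle and orange for β-NMN, in peritoneal cells (n = 6 per group), hearts and lungs (n = 3 per group). The heart-type genes are above their partners in hearts alone.

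The ratio of the heart-type to the ubiquitous count was taken within each library, so that depth and scaling do not enter. In hearts the log2 ratio of Cox8b to Cox8a was 2.39, 1.38 and 2.43 with vehicle and 2.41, 2.60 and 2.52 with β-NMN, a difference of 0.44 (exact two-sided permutation p = 0.2, adjusted over 3 pairs 0.3). That of Cox6a2 to Cox6a1 was 3.47 ± 0.40 and 3.79 ± 0.10 (SD, n = 3; exact permutation p = 0.3), and that of Cox7a1 to Cox7a2 was 1.33 ± 0.24 and 1.54 ± 0.08 (exact permutation p = 0.3). In all 3 pairs the lowest ratio was that of vehicle replicate 2, and without it the differences were 0.11, 0.08 and 0.10 for Cox6a2, Cox7a1 and Cox8b. The gene values themselves were not called: Cox6a2 0.29, Cox7a1 0.33 and Cox8b 0.34 (adjusted p = 0.561, 0.599 and 0.585), and 0.11, 0.047 and 0.055 without vehicle replicate 2.

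In lungs Cox7a1 had 5.80, 17.2 and 6.34 CPM with vehicle and 3.90, 5.41 and 2.27 CPM with β-NMN. The groups did not overlap, and the log2 fold change was −1.32 ± 0.55 (adjusted p = 0.969), or −0.66 without vehicle replicate 2. Cox8b had 5.16, 12.0 and 6.38 CPM against 6.09, 6.38 and 2.97 CPM (−0.59, adjusted p = 0.969, and −0.17 without that library), and Cox6a2 had 22.6, 19.5 and 29.3 CPM against 29.4, 18.3 and 20.4 CPM (−0.07, adjusted p = 0.980, and −0.19 without it). The log2 ratio of Cox7a1 to Cox7a2 was −3.25 ± 0.65 and −4.42 ± 0.86 (SD, n = 3; exact permutation p = 0.2, adjusted over 3 pairs 0.6). Those of Cox8b and of Cox6a2 differed by −0.58 and 0.06 (exact permutation p = 0.4 and 1).

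The summed level of cardiomyocyte markers ran in the same order over the lungs as Cox7a1, and not in that of Cox6a2. This holds for the sum, and the order of each single marker was not compared with Cox7a1. The 10 markers summed to 330, 766 and 343 CPM in vehicle lungs and to 183, 317 and 97.1 CPM in β-NMN lungs, which did not overlap. Within them, Myl7 was 27.9 to 131 CPM and 9.43 to 28.6 CPM, while Myl2 was at most 0.51 CPM in any lung. The 8 skeletal muscle markers summed to 10.3 to 22.4 CPM in vehicle lungs and 13.1 to 19.6 CPM in β-NMN lungs. Among them Myh4 reached 0.07 CPM and Myh1 0.17 CPM at most, and Ckm, which heart muscle also makes, had 3.07, 4.77 and 3.11 CPM against 0.91, 2.36 and 0.77 CPM, without overlap. The 6 brown fat markers summed to 58.8 to 324 CPM and 34.97 to 76.3 CPM, most of it Fabp4, which other cells also make (49.4, 311 and 51.7 CPM against 28.02, 58.6 and 33.6 CPM). Ucp1, which defines brown fat, had 0.04 CPM at most, and Adipoq, made by all fat cells, had 0.91, 1.01 and 1.78 CPM against 0.18, 5.57 and 0.11 CPM. The part of muscle and fat cells in the lung values of Cox7a1 was not tested.

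In peritoneal cells only the pair of Cox7a1 and Cox7a2 had at least 10 counts in every library. The log2 ratio was −5.57 ± 0.31 with vehicle and −5.37 ± 0.71 with β-NMN (SD, n = 6; exact two-sided permutation p = 0.539). Cox7a1 itself had 0.36 to 0.65 CPM in vehicle cells and 0.26 to 1.27 CPM in β-NMN cells (0.38, adjusted p = 0.345).

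The promoters of the Cox7a and Cox8 pairs are shown because these genes differ so much between tissues, with Cox7a1 at chr7:30183921-30184170 (plus strand), Cox7a2 at chr9:79759854-79760103 (minus strand), Cox8b at chr7:140900447-140900696 (minus strand) and Cox8a at chr19:7217617-7217866 (minus strand) of GRCm38.p6, from RefSeq. Capitals mark the CCAAT letters, on either strand.
Cox7a1: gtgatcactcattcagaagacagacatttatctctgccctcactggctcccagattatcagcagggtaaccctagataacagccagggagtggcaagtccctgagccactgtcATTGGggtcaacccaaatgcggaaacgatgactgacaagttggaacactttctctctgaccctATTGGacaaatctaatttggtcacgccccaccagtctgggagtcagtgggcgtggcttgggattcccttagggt
Cox7a2: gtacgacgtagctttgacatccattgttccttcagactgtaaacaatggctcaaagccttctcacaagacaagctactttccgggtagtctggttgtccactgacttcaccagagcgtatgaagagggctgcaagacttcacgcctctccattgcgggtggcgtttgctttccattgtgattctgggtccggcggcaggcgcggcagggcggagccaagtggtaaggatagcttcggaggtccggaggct
Cox8b: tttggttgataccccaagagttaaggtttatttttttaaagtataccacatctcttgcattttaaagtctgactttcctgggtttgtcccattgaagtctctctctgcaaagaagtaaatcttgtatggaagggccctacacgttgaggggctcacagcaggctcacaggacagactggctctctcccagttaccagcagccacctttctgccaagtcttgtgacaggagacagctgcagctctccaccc
Cox8a: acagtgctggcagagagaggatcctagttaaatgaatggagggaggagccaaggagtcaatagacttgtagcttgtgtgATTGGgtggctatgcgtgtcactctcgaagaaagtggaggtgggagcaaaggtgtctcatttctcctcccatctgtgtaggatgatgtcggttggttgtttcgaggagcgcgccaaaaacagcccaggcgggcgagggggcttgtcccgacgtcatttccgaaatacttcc
Cox7a1 holds CCAAT letters at 2 places and Cox8a at 1, each as ATTGG, and Cox7a2 and Cox8b hold none. The consensus of MEF2, a factor of muscle genes, was in 0 of the 32 members with a window, and in 3.42% of all genes with one. Cox6a2 had no window and was not searched. With 32 windows, a count of 0 cannot be told apart from a share of 3.42%.

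Levels per kilobase of mRNA ranged widely within a complex. In complex III, Uqcrq was highest in vehicle hearts (843 ± 255 CPM per kb) and Uqcrc2 lowest (270 ± 90.7). They lay within the spread of Uqcr11 (676 ± 177) and Uqcrfs1 (352 ± 96.6). In vehicle peritoneal cells Uqcrq was again highest (88.7 ± 8.84) and Uqcr11 lowest (12.4 ± 2.81). With β-NMN, Uqcrh had 76.2 ± 6.75 and Uqcrq 72.4 ± 5.47 there, and Uqcr11 (20.8 ± 2.85) and Uqcrc2 (21.6 ± 1.08) were close. In lungs Uqcrc2 was lowest (24.3 ± 17.8 with vehicle and 31.8 ± 7.99 with β-NMN). The highest in lungs, Uqcrh, had 525.8 ± 489 with vehicle, where vehicle replicate 2 had 1089, and 275 ± 81.2 with β-NMN, within the spread of Uqcr10 (233 ± 74.9) and Uqcrq (231 ± 67.4). In complex IV, Cox6a2 and Cox4i1 were the highest genes in hearts and lay within their spread of each other, with 1516 ± 351 and 1466 ± 422 with vehicle and 1860 ± 254 and 1935 ± 190 with β-NMN. Cox4i1 led in vehicle peritoneal cells (158 ± 28.8), and in lungs it had 903 ± 624.7 with vehicle and 559 ± 202 with β-NMN, within the spread of Cox6a1 there (507 ± 149). In complex V, Atp5b led in vehicle hearts (2489 ± 646) and peritoneal cells (219 ± 18.7), and Atp5e in lungs (1220 ± 1340 with vehicle and 493.2 ± 169 with β-NMN). Atp5s, a coupling factor and not a structural subunit, was lowest in peritoneal cells (0.42 ± 0.08) and lungs (3.08 ± 0.43). In vehicle hearts it had 9.87 ± 4.23, within the spread of Atp5l (10.6 ± 0.50), and in β-NMN hearts 12.8 ± 1.27 against 10.4 ± 1.37 of Atp5l. The large SDs in lungs are those of vehicle replicate 2. The members together had a mean summed level of 1897 CPM in vehicle peritoneal cells, 24106 CPM in vehicle hearts and 6443 CPM in vehicle lungs. Vehicle replicate 2 raised the lung mean (9657 CPM, against 5040 and 4633 CPM) and lowered the heart mean (16584 CPM, against 28264 and 27471 CPM).

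In hearts and lungs 0 genes of any other list of the pathway were called by edgeR, DESeq2 or limma-voom. Of all genes, DESeq2 called 262 in hearts and 9 in lungs, and limma-voom 3 and 7. At an unadjusted p below 0.05 there were 2 genes of these lists in hearts and 0 in lungs. In hearts these were Bcs1l, which inserts the Rieske protein (0.46, adjusted p = 0.435, and 0.30 without vehicle replicate 2), and Pprc1, a relative of PGC-1α (−0.71, adjusted p = 0.435, and −0.29 without it). Ppargc1a, which encodes PGC-1α, the main coactivator of mitochondrial genes, had 34.8 to 96.6 CPM in vehicle hearts and 102 to 125 CPM in β-NMN hearts (0.74, adjusted p = 0.441, and 0.41 without it). In lungs the smallest p were those of Ppargc1b (−2.18) and Sco1, a copper chaperone of complex IV (−0.97), both with an adjusted p of 0.969. Both values rested on vehicle replicate 2, and without it they were 0.09 and −0.07.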

How the data were processed

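RNA-seq libraries of 12 peritoneal cell, 6 heart and 6 lung samples were analysed. The authors deposited raw read counts per gene symbol, made from poly(A)-selected RNA. The submitters' processing notes name STAR 2.7.3a, featureCounts 2.0.0 and the mm10 genome, and how strand was treated in counting is not given there. Groups and replicate numbers came from the sample labels. Among β-NMN hearts the titles use the number 3 for more than one mouse, and the mouse that is lung replicate 2 was entered as heart replicate 2.

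Separate fits per tissue were made with edgeR 4.0.16 in R 4.3.3 (filterByExpr defaults, TMM factors, older quasi-likelihood F-test), over the whole table, without covariates. Adjusted p are Benjamini-Hochberg values over all genes tested, and a gene with an adjusted p below 0.05 is called. CPM are scaled by TMM. Levels per kb use the median length of the annotated mRNAs. For single values, mean log2 CPM (prior count 2) was put to the exact permutation test, two-sided, and isoform ratios used a pseudocount of 0.5. Replicate numbers did not pair the samples (correlation of deviations −0.17 to 0.13 in peritoneal cells, 0.07 to 0.24 in hearts, −0.52 to 0.30 in lungs), whereas heart and lung of the same number come from the same mouse. The edgeR p-values set the difference between treatments against a spread estimated from few mice per group.

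Of the members, 22 have a near-identical copy (at least 90% identity over 80% of the coding sequence) and 13 overlap an exon of another gene. Apart from Atp5l and Cox6c2, copies held at most 1.64% of the joint reads. The genes named are the isoform pairs, the 3 smallest p per complex, members against the median of their complex, those highest and lowest per kb and those under the filter, and from each other list the 2 smallest p. The further nuclear genes that the naming rule missed are all named in peritoneal cells. Members, lists and this rule were chosen with earlier results of these data known. The alternatives were DESeq2 1.42.0 and its size factors, library totals, no filter, the newer quasi-likelihood fit, limma-voom (limma 3.58.1), the replicate block, both organs in one fit, another pseudocount and leaving out each library. Removal of the length trend, the depth classes and leaving out 2 peritoneal libraries together were added after seeing the data. The tests were checked on simulated counts.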

Additional observations from a re-analysis of the deposited data

Results flagged for a closer look

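Of 46 groups of 6 peritoneal libraries examined, 2 held a sample far from the others by Dixon's test, where chance alone marks about 1 in 20. In vehicle cells, replicate 3 had 13.98 CPM of Uqcr10, a small subunit of complex III, and the other 5 vehicle libraries had 9.45 to 11.03 CPM. The gap to the nearest library was 0.65 of the range of the group, above the critical value of 0.625. In β-NMN cells, replicate 6 had 56.87 CPM of Atp5c1, the γ subunit of complex V, and the other 5 had 68.7 to 75.5 CPM, with a gap of 0.635 of the range. Groups of 3 hearts or lungs were not examined this way.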

How the results depend on the processing

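In peritoneal cells the count of called members was 16 to 26 under the alternatives that kept all 12 libraries in a single fit, against 22, where 14.2% (without the low-count filter) to 59.1% of all genes were called. Without single libraries it was 17 (without vehicle replicate 6 or β-NMN replicate 2) to 27 (without vehicle replicate 3), where 47.1% to 51.7% of all genes were called, with medians of 0.28 to 0.41. With the replicate block it was 21, where 46.8% of all genes were called, with a median of 0.31, and 0 were called with it in hearts or lungs. Among the shallower libraries alone 1 member was called, with a median of 0.16. The median was 0.55 among the deeper libraries alone and 0.44 without both far libraries. In hearts and lungs 0 members were called under every alternative run. The most genes called over the whole table were 262 of 16245 in hearts and 9 of 17008 in lungs, both by DESeq2. Leaving out 1 library moved the heart median from 0.048 to 0.38 and the lung median from −0.47 to 0.029, both nearest to 0 without vehicle replicate 2. Scaling by library totals alone moved the median of all genes to −0.14 in hearts and 0.12 in lungs, and that of the members to 0.16 and −0.09. The causes of these shifts were not tested.

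Without single libraries, the difference in log2 isoform ratio ran from 0.11 to 0.50 (Cox6a2), 0.077 to 0.31 (Cox7a1) and 0.098 to 0.62 (Cox8b) in hearts, from −0.28 to 0.30, −1.62 to −0.76 and −0.97 to −0.22 in lungs, and from 0.0074 to 0.44 (Cox7a1) in peritoneal cells.

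Of all members tested, 0 to 2 changed sign in peritoneal cells when 1 library was left out, 1 to 11 in hearts and 2 to 24 in lungs, the most in both organs without vehicle replicate 2. Among the members followed through every alternative, those that did had these ranges: in peritoneal cells, Atp5b −0.071 to 0.040 and Cox7a2 −0.029 to 0.12, and in hearts Atp5l −0.11 to 0.077, Cox6a1 −0.078 to 0.060, Cox6b2 −0.17 to 0.11, Cox7a2 −0.033 to 0.28 and Cox8a −0.049 to 0.030. In lungs they were Atp5b −0.20 to 0.31, Atp5e −1.69 to 0.14, Atp5g3 −1.03 to 0.059, Atp5h −0.19 to 0.21, Atp5l −1.59 to 0.17, Atp5s −0.0089 to 0.20, Cox4i1 −1.02 to 0.041, Cox4i2 −0.87 to 0.44, Cox5a −0.91 to 0.0076, Cox6a1 −0.37 to 0.11, Cox6a2 −0.30 to 0.12, Cox7a2 −0.19 to 0.095, Cox7b −0.075 to 0.19, Cox8a −0.20 to 0.21, Uqcrc2 −0.12 to 0.80 and Uqcrh −1.28 to 0.17.

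Under the other alternatives 0 to 7 of all members changed sign in peritoneal cells, 0 to 6 in hearts and 0 to 13 in lungs. In peritoneal cells Atp5b was at 0.082 with the length trend removed, 0.14 in the deeper class and 0.032 without both far libraries, and the 7 of the shallower class were Atp5a1, Atp5d, Atp5j, Cox5b, Uqcrfs1, Cox7a2 (−0.14) and Cox8a (−0.014). In hearts the 6 were under limma-voom with quality weights. In lungs the same weights gave, among the members followed, Atp5b −0.12, Atp5s −0.035, Cox4i2 0.090, Cox6a1 0.037, Cox7a2 0.076, Cox7b −0.027 and Cox8a −0.028, and library totals gave Cox6a1 0.040, Cox6a2 0.028 and Cox7a2 0.095. The size factors of DESeq2 gave Atp5h −0.020 and Cox8a −0.00062, DESeq2 gave −0.020 and −0.00074, and the replicate block gave Cox8a −0.0085. The shallowest library, the lung of vehicle replicate 2, had 8.92 M counts, and without it the median standard error of the members fell from 0.37 to 0.24. The part of depth in this was not tested.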

Other observations

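Genes for the same mature subunit c of complex V were used in different proportions. Per kilobase of mRNA, vehicle peritoneal cells had 67.6 ± 7.21 CPM of Atp5g2 and 54.0 ± 5.09 of Atp5g3 (SD, n = 6), and vehicle hearts had 1421 ± 405 of Atp5g3 and 104 ± 19.96 of Atp5g2 (SD, n = 3). Atp5g1 had 4.55 ± 0.70 and 337 ± 91.0 CPM per kb. In vehicle peritoneal cells Atp5g2 had the highest mean of the 3 per kb. Its range, 57.8 to 77.0, overlapped that of Atp5g3, 49.0 to 61.6. Before division by length their means were 39.6 and 38.8 CPM. The order per kb rests on annotated lengths of 586 (Atp5g2), 718.5 (Atp5g3) and 2675.5 nucleotides (Atp5g1). In hearts Atp5g1 and Atp5g3 held 308121 and 320497 counts in all libraries together. In peritoneal cells Atp5g2 also had the largest log2 fold change of the 3 (0.45, against 0.28 for Atp5g1 and 0.21 for Atp5g3). These differences between the 3 genes were not tested.

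The forms of subunit 4 of complex IV differed between tissues. The log2 ratio of Cox4i2, a form linked to lung and to low oxygen, to Cox4i1 was −3.67 ± 0.20 with vehicle and −3.36 ± 0.15 with β-NMN in the lung (SD, n = 3). It was −8.14 ± 0.79 and −7.61 ± 0.27 in hearts. In peritoneal cells Cox4i2 had 139 counts in all 12 libraries. No test was set for this ratio.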
